A study of Mus musculus with 12 samples.

Results

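The genes described here are 10 regulators of actin and microtubules, measured in regrowing mouse skin with and without Sox4. They are the Ena/VASP genes Evl, Enah and Vasp, the MARCKS genes Marcksl1 and Marcks, the beta-thymosins Tmsb10 and Tmsb4x, the stathmin Stmn1, and the LIM-domain genes Tes and Zyx. Evl, Marcksl1, Tmsb10, Stmn1 and Tes were chosen on their lower signal in Sox4-deficient skin, and Enah, Vasp, Marcks, Tmsb4x and Zyx were added as relatives of them. Matching of probe accessions to these symbols gave 12 probes for the 10 genes, out of 55681 probes on the array and 16183 genes tested. Each of the 10 genes passed the filter on dim probes, and each was well above background on 12 of 12 arrays. Because the genotype difference chose the members, it is given for them as a description without a p-value. The other contrasts were not used in the choice and were tested.

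One-colour arrays, 1 per mouse, measured skin RNA of 12 male mice 12 days after plucking, a treatment that drives resting hair follicles into growth. Mice whose Sox4 was conditionally deleted in skin (cKO) were 68 to 72 weeks old in Exp 1 (mice cKO 2, 5 and 6) and 16 to 18 weeks old in Exp 2 (mice cKO 1, 3 and 4). Wild-type mice (WT) were 69 to 72 weeks old in Exp 1 (WT 1, 2 and 3) and 18 to 20 weeks old in Exp 2 (WT 4, 5 and 6). All were of mixed C57Bl6/129Sv background and all had been plucked. Neither the promoter that drives Cre nor any floxed allele in WT mice is stated in the labels. Age and experiment cannot be told apart in this design. Expression is given as a log2 level, the log2 of the background-subtracted spot signal minus that of the array's 75th percentile, so that 0 is a spot as bright as that percentile. Levels are compared between mice for 1 gene, never between genes.

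Sox4, the SoxC-family transcription factor that was deleted, had levels of -4.26 to -2.55 in the 6 cKO mice, against 1.90 to 2.43 in the 6 WT mice. The probe that gave these levels was well above background in 4 of 6 cKO mice and in 6 of 6 WT mice. A second Sox4 probe was well above background in 0 of 6 cKO mice and in 6 of 6 WT mice. Keratinocyte markers were detected throughout: 7 of 7 basal and 5 of 5 measured suprabasal genes were well above background on every array. An array detected 53.9% to 62.6% of its probes above background, that of cKO 5 the fewest. That mouse stood apart from the other 5 cKO mice. Its hair matrix and shaft markers averaged a level of 2.86, against 5.19 to 6.16 in the other cKO mice and 5.33 to 6.36 in WT mice, and its melanocyte markers averaged 0.33, against 2.87 to 3.93 and 3.39 to 4.05. Differences of the members without cKO 5 are therefore given below.

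The members act at successive points of the cytoskeleton. Ena/VASP proteins sit at growing ends of actin filaments and favour their elongation; beta-thymosins hold actin monomers in reserve; MARCKS proteins bind acidic lipids of the plasma membrane and actin, and leave the membrane when protein kinase C phosphorylates them. Stathmin binds tubulin dimers and promotes the loss of microtubules, a role that is switched off by phosphorylation at mitosis. Zyxin and testin (the product of Tes) are LIM-domain proteins of focal adhesions and stress fibres, where zyxin recruits Ena/VASP proteins and testin binds Mena, the product of Enah. In hair follicles and epidermis these systems serve cell division, adhesion and the movement of cells along the growing follicle.

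SOX proteins bind DNA through an HMG box that prefers short sequences around AACAAAG and AACAATG. These 7-base words were searched on both strands, exactly and without overlap between them, in RefSeq promoters of GRCm38.p6 that reach from 250 bases before to 50 bases after the start site. Of the 10 members, 8 had an entry, with 11 promoters in all. AACAAAG was found once in Tes and once in Enah, and AACAATG in none of the 11. Neither word lay in the windows of Evl, Marcksl1, Tmsb10, Tmsb4x, Vasp or Zyx. Among 16089 promoters of genes tested, 4.36% held AACAAAG and 6.56% held either word. Both promoters with a match are shown because they belong to a gene chosen as lower in cKO skin and to a relative not chosen on that difference. They are given 5′ to 3′ on the gene's strand, with the word in capitals (in Tes as its reverse complement, CTTTGTT), for the first 280 bases of the window: chr6:17064899-17065178 on the plus strand for Tes and chr1:182019951-182020230 on the minus strand for Enah.
Tes: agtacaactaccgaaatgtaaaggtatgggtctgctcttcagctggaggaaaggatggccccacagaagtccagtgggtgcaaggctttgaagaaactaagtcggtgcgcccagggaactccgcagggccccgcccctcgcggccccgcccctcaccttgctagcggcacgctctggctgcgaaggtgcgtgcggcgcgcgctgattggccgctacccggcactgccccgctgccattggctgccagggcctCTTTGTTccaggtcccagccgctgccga
Enah: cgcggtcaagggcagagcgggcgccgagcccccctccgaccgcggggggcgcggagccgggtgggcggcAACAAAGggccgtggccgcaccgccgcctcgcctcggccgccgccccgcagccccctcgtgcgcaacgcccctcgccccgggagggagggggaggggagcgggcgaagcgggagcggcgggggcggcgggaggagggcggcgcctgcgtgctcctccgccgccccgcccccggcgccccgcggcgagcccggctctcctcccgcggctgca
In Tes the word begins at position 2 and in Enah at position -181, where the start site is position 0. A match of letters describes the sequence; binding was not measured here.

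Evl, an actin filament elongation factor (chr12:108554681-108688516, GRCm38.p6), was the member of the Ena/VASP family with the lower signal in cKO skin. Its log2 levels in cKO mice were 2.69, 1.83 and 2.82 in Exp 1 and 2.76, 2.70 and 2.89 in Exp 2. WT mice had 3.87, 4.37 and 4.07 in Exp 1 and 4.01, 4.20 and 3.90 in Exp 2. All 6 cKO mice lay below all 6 WT mice, and cKO 5 lay far below the other 5. The difference, cKO minus WT, averaged over both experiments, was -1.45 log2 units (SE 0.17, n = 6 and 6), 2.74-fold lower in cKO, and -1.30 without cKO 5. In background-subtracted signal this was 1299 to 3761 units in cKO mice and 7498 to 9181 units in WT mice.

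Enah, which encodes Mena (chr1:181896384-182027556), had levels of 0.40, 1.01 and 0.52 in Exp 1 and -0.01, 0.02 and 0.13 in Exp 2 in cKO mice. In WT mice it had 0.76, 0.79 and 0.69 in Exp 1 and 0.20, 0.23 and 0.24 in Exp 2. Genotypes overlapped in Exp 1 through cKO 5 alone, and in Exp 2 the 3 cKO mice lay just under the 3 WT mice. The averaged difference was -0.14 (SE 0.10), and a second, dimmer Enah probe gave the same -0.14. Without cKO 5 the brighter probe gave an averaged difference of -0.23, and -0.29 in Exp 1 alone (SE 0.10). Vasp (chr7:19256929-19271854) ranged from 0.46 to 1.06 in cKO mice (median 0.58) and from 0.57 to 1.01 in WT mice (median 0.75). Its groups overlapped, with an averaged difference of -0.12 (SE 0.10), or -0.19 without cKO 5. Within each array, the log2 signal ratio of Evl to Enah differed by -1.31 in cKO relative to WT (SE 0.26) and that of Evl to Vasp by -1.33 (SE 0.23), and for both ratios the 6 cKO mice lay below the 6 WT mice. A ratio within an array shows that the genes differed unequally, not that the relative stayed constant. The first gene of each ratio, here and below, was chosen on its lower signal in cKO skin. The ratios and their separation are therefore a description.

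**Figure D1:**
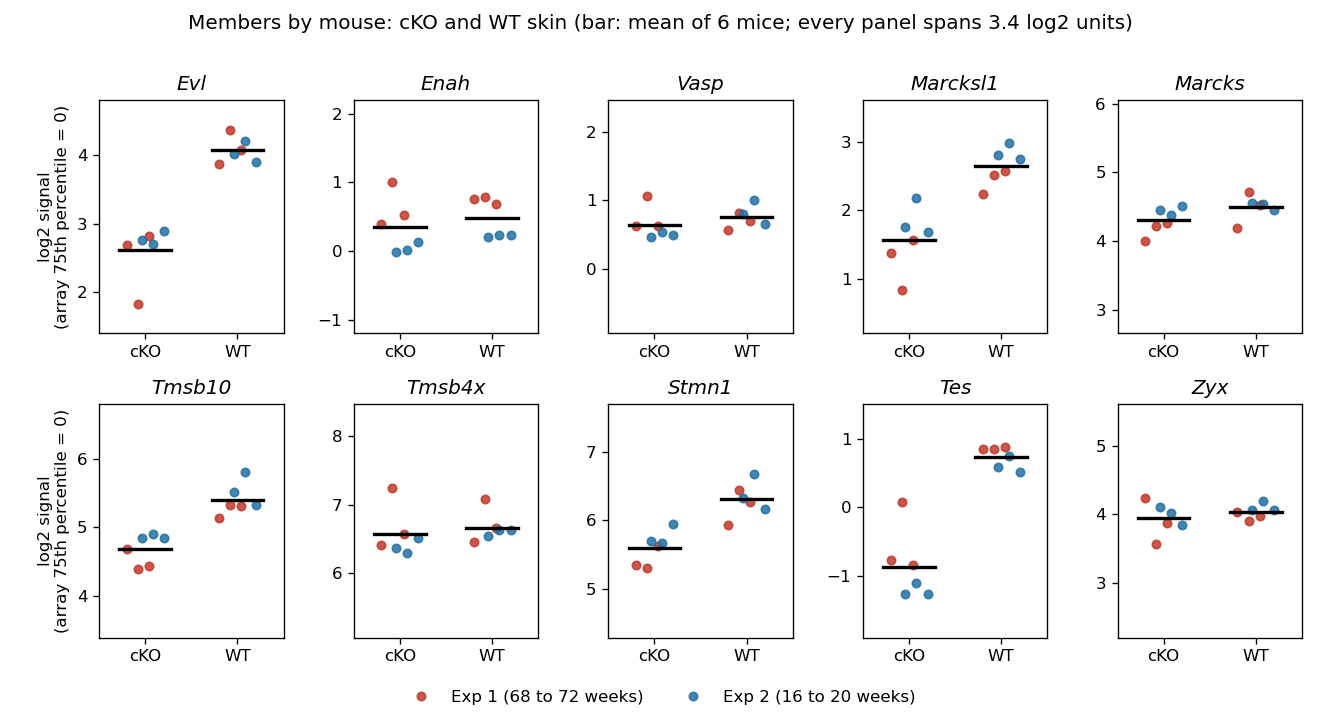
Log2 level (0 at the array's 75th percentile) of each member in each mouse, cKO on the left and WT on the right of every panel, coloured by experiment, with a bar at the mean of 6 mice. Every panel spans the same number of log2 units. Evl, Marcksl1, Tmsb10 and Tes do not overlap between genotypes, Stmn1 overlaps by 1 mouse, and Enah separates by experiment.

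Marcksl1, the MARCKS-like membrane and actin binder (chr4:129513581-129515981), had levels of 1.37, 0.83 and 1.56 in Exp 1 and 1.75, 2.17 and 1.68 in Exp 2 in cKO mice. WT mice had 2.23, 2.51 and 2.57 in Exp 1 and 2.81, 2.98 and 2.74 in Exp 2. The highest cKO mouse (2.17) stood just under the lowest WT mouse (2.23), and they came from different experiments. The averaged difference was -1.08 (SE 0.14), 2.12-fold lower in cKO, and -0.98 without cKO 5. Marcks (chr10:37133243-37138926) ranged from 4.00 to 4.51 in cKO mice (median 4.32) and from 4.19 to 4.71 in WT mice (median 4.53), so that groups overlapped, with a difference of -0.19 (SE 0.10). In Exp 1 alone Marcks differed by -0.31, or -0.34 without cKO 5. The ratio of Marcksl1 to Marcks differed by -0.89 log2 units between cKO and WT (SE 0.16). Its groups abutted, at a cKO maximum of -2.21 and a WT minimum of -2.20.

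Tmsb10, a beta-thymosin that binds actin monomers (chr6:72957347-72958748), had levels of 4.69, 4.39 and 4.44 in Exp 1 and 4.84, 4.91 and 4.84 in Exp 2 in cKO mice, against 5.14, 5.32 and 5.31 in Exp 1 and 5.51, 5.80 and 5.32 in Exp 2 in WT mice. No cKO mouse reached the lowest WT mouse. The difference was -0.71 (SE 0.10), 1.64-fold lower in cKO. In Exp 1 alone it was -0.75, or -0.69 without cKO 5. Tmsb4x, the other broadly expressed beta-thymosin (chrX:167207093-167213479), ranged from 6.29 to 7.24 in cKO mice (median 6.47) and from 6.46 to 7.08 in WT mice (median 6.63). Its difference was -0.10 (SE 0.15), or -0.22 without cKO 5. One mouse of each genotype, cKO 5 and WT 2, lay well above its group. The ratio of Tmsb10 to Tmsb4x differed by -0.62 (SE 0.20), and its groups overlapped.

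Stmn1, the microtubule destabiliser (chr4:134468320-134473843), had levels of 5.34, 5.31 and 5.63 in Exp 1 and 5.70, 5.67 and 5.94 in Exp 2 in cKO mice. WT mice had 5.93, 6.44 and 6.27 in Exp 1 and 6.33, 6.67 and 6.17 in Exp 2. Groups overlapped by cKO 4, which was marginally above WT 1; within each experiment they did not overlap. The difference was -0.70 (SE 0.13), 1.63-fold lower in cKO. In Exp 1 alone it was -0.79, or -0.73 without cKO 5. A second Stmn1 probe gave -0.73, with levels of 4.12 to 4.67 in cKO mice and 4.73 to 5.59 in WT mice.

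Tes, which encodes testin (chr6:17065149-17105825), showed the lowest cKO-to-WT ratio of the members. Its levels in cKO mice were -0.77, 0.08 and -0.85 in Exp 1 and -1.27, -1.11 and -1.27 in Exp 2, and in WT mice 0.85, 0.85 and 0.87 in Exp 1 and 0.58, 0.75 and 0.51 in Exp 2. All cKO mice lay below all WT mice, with cKO 5 close to the WT range. The difference was -1.60 (SE 0.15), 3.02-fold lower in cKO, and -1.75 without cKO 5. In background-subtracted signal, Tes gave 188 to 386 units in cKO mice and 715 to 992 units in WT mice. Zyx, its relative at focal adhesions (chr6:42349511-42360213), ranged from 3.57 to 4.24 in cKO mice (median 3.95) and from 3.91 to 4.19 in WT mice (median 4.04). The groups overlapped, with a difference of -0.10 (SE 0.11), or -0.01 without cKO 5. The ratio of Tes to Zyx differed by -1.50 (SE 0.24), and groups overlapped through cKO 5.

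**Figure D2:**
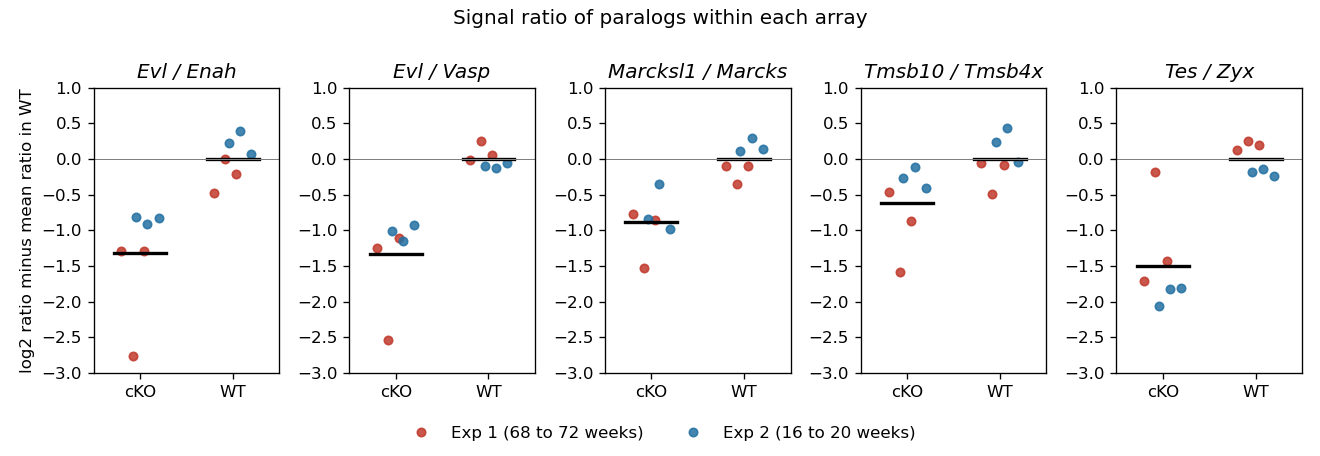
Log2 signal ratio of a lower member to its relative within each array, minus the mean ratio in WT, for cKO (left) and WT (right) mice, coloured by experiment, with a bar at the mean of 6 mice. Evl / Enah, Evl / Vasp and Marcksl1 / Marcks do not overlap between genotypes, while Tmsb10 / Tmsb4x and Tes / Zyx do. The lower members were chosen on the genotype difference, so the ratios are a description.

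An adjusted p under 0.05 in the averaged contrast in limma was reached by 63 of 16183 genes as lower in cKO (0.389%) and by 68 in either direction (0.420%), and the 5 lower members, chosen from that contrast, are among them. Stmn1 was just inside, at -0.70, and Marcks, at -0.19, was the nearest member outside. Of 27 alternative fits, Tes stayed inside in 26, Evl in 23, Marcksl1 in 22, Tmsb10 in 19 and Stmn1 in 4. One of the fits that Tmsb10 left was that without WT 3. Of all genes, 194 (1.20%) had all 6 cKO mice below all 6 WT mice, and 4 members were among them. In Exp 1 alone 0.105% of genes, Evl among them, were past that threshold as lower in cKO, and in Exp 2 alone 0.0556%, Tes among them. All of these calls come from the difference that chose the members and carry no weight as tests of them. The averaged difference over all genes had a median of -0.04.

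Whether the genotype difference itself changed between the older mice of Exp 1 and the younger mice of Exp 2 was asked by the interaction, which played no part in the choice. Evl differed by -1.65 in Exp 1 and -1.25 in Exp 2, Marcksl1 by -1.19 and -0.98, Tmsb10 by -0.75 and -0.68, Stmn1 by -0.79 and -0.62, and Tes by -1.37 and -1.83. The interaction (Exp 1 minus Exp 2) was -0.40 for Evl (SE 0.34), -0.21 for Marcksl1 (SE 0.29), -0.07 for Tmsb10 (SE 0.20), -0.17 for Stmn1 (SE 0.25) and 0.46 for Tes (SE 0.30). Among the relatives, Vasp had the interaction farthest from 0, at 0.40 (SE 0.21), with 0.08 in Exp 1 and -0.32 in Exp 2. Without cKO 5 the interaction was -0.09 for Evl, 0.01 for Marcksl1, -0.01 for Tmsb10, -0.12 for Stmn1, 0.16 for Tes and 0.25 for Vasp. None of the 10 members passed the interaction test in limma (0 of 10, adjusted p = 0.9997 for each), and 0 of 10 had an unadjusted p under 0.05, next to 3.16% of all genes. Over all genes, 0.00618% passed. With 3 mice in a group, values larger than their SE, such as those of Tes and Vasp, did not pass either. Differences between the experiments above these errors could therefore be missed too.

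**Figure D3:**
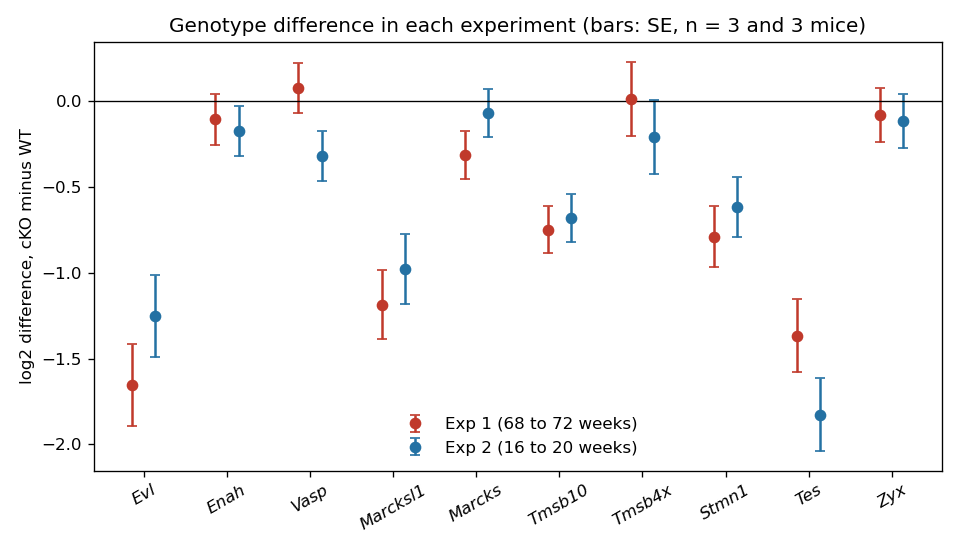
Log2 difference, cKO minus WT, of each member in Exp 1 (red) and Exp 2 (blue), with bars of 1 SE from the fit (3 cKO and 3 WT mice each). Evl, Marcksl1, Tmsb10, Stmn1 and Tes lie below 0 in both experiments, and no member's interaction passed the test.

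Enah was the 1 member of 10 whose level separated the experiments, a count close to the share over all genes. All 6 mice of Exp 1 (0.40 to 1.01) lay above all 6 mice of Exp 2 (-0.01 to 0.24), a separation in either direction that 10.3% of all genes showed. Within cKO mice, Enah was 0.59 higher in Exp 1 than in Exp 2 (SE 0.15, adjusted p = 0.035 in limma), the 1 member called in a contrast where 9.98% of genes were called. Within WT mice it was 0.52 higher (SE 0.15, adjusted p = 0.099), and 0 of 10 members were called in a contrast where 0.840% of genes were; Enah was the 1 of 10 members with an unadjusted p under 0.05, next to 18.5% of all genes. The second Enah probe gave 0.65 in cKO mice and 0.32 in WT mice.

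The call in cKO mice was close to the threshold. It was lost on leaving out WT 1, 3 or 4 or cKO 1, 3, 4 or 5, with adjusted p between 0.050 and 0.109 in limma, and with slide as a block (adjusted p = 0.085). Without cKO 5 the Enah difference between the experiments was 0.41 in cKO mice (adjusted p = 0.054) and 0.52 in WT mice, where it then passed (adjusted p = 0.029). The mean level of 7 basal keratinocyte markers separated the experiments too, at 5.83 to 6.64 in cKO and 5.69 to 5.89 in WT mice of Exp 1, against 5.13 to 5.46 in cKO and 5.27 to 5.55 in WT mice of Exp 2; its part in the Enah difference was not tested.

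The other 9 members did not pass between the experiments. In cKO mice Tes differed by 0.70, Exp 1 minus Exp 2 (SE 0.21, adjusted p = 0.063 in limma), Marcksl1 differed by -0.61 (SE 0.20, adjusted p = 0.080) and Tmsb10 by -0.36 (SE 0.14, adjusted p = 0.13). Without cKO 5 these were 0.40 for Tes (adjusted p = 0.070), -0.40 for Marcksl1 (adjusted p = 0.21) and -0.30 for Tmsb10 (adjusted p = 0.28). Without cKO 6, Tes (0.87, adjusted p = 0.030) and Marcksl1 (-0.77, adjusted p = 0.039) passed. In WT mice the same contrast was 0.24 for Tes (SE 0.21), -0.41 for Marcksl1 (SE 0.20) and -0.29 for Tmsb10 (SE 0.14).

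The genes around the members gave a wider view of the 2 filament systems. Of 113 further cytoskeletal genes in 6 lists, 101 were measured, and 0 passed the averaged genotype contrast in limma. At an unadjusted p under 0.05 there were 13 (12.9%), next to 12.2% of all genes. Their median difference was -0.06, close to the -0.04 of all genes.

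Tubulins, the subunits of microtubules to which stathmin binds, had the lowest median of these lists. Of 15 tubulins, 13 (86.7%) had a negative difference, next to 57.7% of all genes, and the median was -0.34. Tubb5 had levels of 4.58 to 5.21 in cKO mice and 5.48 to 6.13 in WT mice, the 1 gene of 101 (next to 1.20% of all genes) with all cKO below all WT mice, and differed by -0.75 (SE 0.14, adjusted p = 0.062). Tuba1a differed by -0.57 (SE 0.11, adjusted p = 0.069), Tubb2b by -0.58 (SE 0.12, adjusted p = 0.084), and Tubg1, the gamma-tubulin of microtubule nucleation, by -0.35 (SE 0.12, adjusted p = 0.29). None passed the test in limma. Tubulin genes resemble each other in sequence, so their probes may read more than 1 of them.

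Among 20 measured microtubule-associated genes, 12 were negative and the median was -0.05. The depolymerising mitotic kinesin gene Kif2c differed by -0.40 (SE 0.11, adjusted p = 0.16) and the plus-end tracker Mapre1 by -0.23 (SE 0.10, adjusted p = 0.41). The remaining stathmins and thymosins, 4 measured of 7, ranged from -0.29 (Tmsb15b1) to -0.13 (Stmn2); Stmn4 differed by -0.19. Tmsb15l was dim, with 2 of 6 cKO and 3 of 6 WT arrays well above background. No member of that list passed the test.

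The 37 measured genes of actin assembly had a median of -0.04 and ran from -0.57 to 0.99. Wasf1, an activator of the Arp2/3 complex, had the smallest p (-0.57, SE 0.14, adjusted p = 0.13), followed by the actin-severing Cfl1 (-0.34, SE 0.10, adjusted p = 0.25), the formin gene Fmnl3 (-0.37, SE 0.12, adjusted p = 0.27) and the profilin gene Pfn2 (-0.24, SE 0.11, adjusted p = 0.41). Of 6 genes that encode other MARCKS-type substrates of protein kinase C, Basp1 differed by -0.42 (SE 0.10, adjusted p = 0.14) and Akap12 by -0.36 (SE 0.12, adjusted p = 0.29), while Add3 differed by 0.17 and Add2 by 0.14. The 19 measured genes of adhesion LIM proteins and their partners had a median of -0.04, with Fhl2 at -0.21, Pxn (paxillin) at -0.23, Lims1 at -0.12 and Prickle1 at -0.27. None of these passed the test in limma.

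**Figure D4:**
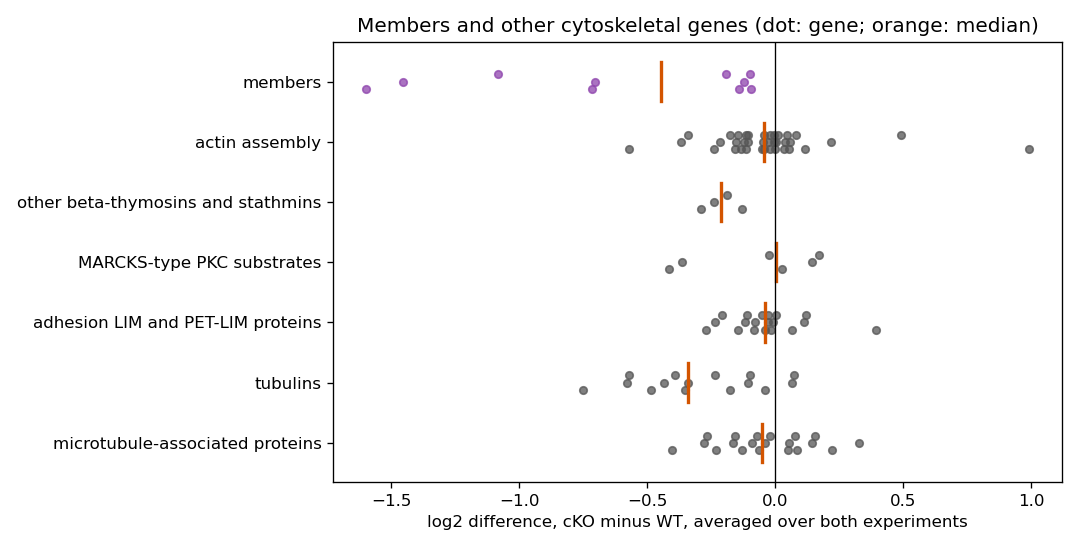
Log2 difference, cKO minus WT, averaged over both experiments, of the 10 members (purple) and of 101 further cytoskeletal genes by list (grey), 1 dot per gene, with an orange line at each median. The tubulins have a median of -0.34 and the other lists lie between -0.21 and 0.00, and the members are shown for scale only, since 5 of them were chosen on this difference.

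Profiles over the 12 mice, each centred on its own mean, were compared with those of 16157 other genes by the root mean square difference in log2 units. Nearest to Evl were Tead2, a DNA-binding partner of YAP (0.204), Pla2g4c (0.204) and H2bu2 (0.213). Marcksl1 was nearest to Nme4 (0.185), Car2, a carbonic anhydrase (0.187), and Dbn1, the actin-binding drebrin (0.196). Tmsb10 was nearest to the cell cycle kinase gene Cdk4 (0.124), Syt9 (0.132) and Zfp422 (0.141), and Stmn1 to the replication helicase subunit Mcm7 (0.110), Traf4 (0.123) and Cdk4 (0.126). Tmsb10 and Stmn1 were each other's 6th nearest gene (0.157). Nearest to Tes were Gm4907 (0.177), the lymphocyte surface gene Cd7 (0.308) and Cck (0.379). The same genotype difference that chose the members makes up much of these profiles, so the likeness is a description.

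In RNA from whole skin, fewer cells of a type and less RNA per cell cannot be told apart, and several marker lists moved with the members. The mean level of 13 measured mitosis genes was 0.73 to 1.47 in cKO mice and 1.33 to 1.75 in WT mice, and 13 of 13 differences were negative (median -0.36, or -0.31 without cKO 5, 0 past the test). The mouse with the lowest mitosis level, cKO 5, also had the lowest Evl, Marcksl1, Tmsb10 and Stmn1. That mouse was also the lowest of the cKO mice for hair matrix and shaft, inner root sheath, dermal papilla, melanocyte and adipocyte markers. It was the highest for basal and suprabasal keratinocyte markers. With the mitosis mean as a covariate, the differences were -0.97 for Evl (SE 0.17), -0.70 for Marcksl1 (SE 0.16), -0.54 for Tmsb10 (SE 0.13), -0.35 for Stmn1 (SE 0.13) and -1.80 for Tes (SE 0.22). Each kept its sign, and the value for Stmn1 moved to -0.35 where the fit without the covariate gave -0.70.

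T lymphocyte markers, among them Cd3e, Lck and Cd3g, moved with Tes. Their mean level over 5 measured genes was -1.33 to -0.81 in 5 cKO mice and -0.09 in cKO 5, against -0.67 to -0.27 in WT mice. The 5 genes were well above background on every array, 4 of 5 had a negative difference, the median was -0.55, or -0.76 without cKO 5, and 0 passed the test. The cKO mouse with the highest T lymphocyte level was also the one with the highest Tes. With that mean as a covariate, Tes differed by -1.07 (SE 0.10), Evl by -1.90 (SE 0.20) and Marcksl1 by -1.35 (SE 0.21), which brought Tes nearer to 0 and took Evl farther from it. The part of mitotic cells and of T lymphocytes in the members' differences was not tested beyond these values.

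Hair matrix and shaft markers had a median difference of -0.48 (10 of 10 negative, 0 past the test), at -0.83 in Exp 1 and -0.13 in Exp 2, and of -0.06 without cKO 5 (8 of 10 negative). Melanocyte markers had -0.79 (6 of 6 negative) and -0.29 without cKO 5, adipocyte markers -0.59 (5 of 5) and -0.09, dermal papilla markers -0.47 (5 of 6) and -0.20, and inner root sheath markers -0.20 (7 of 7) and 0.04, with 0 genes of these lists past the test. With the mean of the hair matrix and shaft markers as a covariate, Evl differed by -1.26 (SE 0.10) and Tes by -1.77 (SE 0.09). Skeletal muscle markers varied widely, from -3.34 to 5.64 in cKO mice and from -4.68 to 5.43 in WT mice, with 11 of 11 differences positive, a median of 2.83 and 0 past the test; 8 of 11 were well above background in every cKO mouse and 3 of 11 in every WT mouse. With the muscle mean as a covariate, Evl differed by -1.29 (SE 0.20) and Tes by -1.60 (SE 0.20). Slides, which were scanned at separate times, held both genotypes in slide 1 (cKO 1, 2 and 6, WT 2, 3 and 5) and slide 2 (cKO 4 and 5, WT 1, 4 and 6). Slide 3 held cKO 3 alone, so genotypes could not be compared within it. Evl differed by -1.45 within slide 1 and -1.55 within slide 2, Marcksl1 by -1.15 and -1.25, Tmsb10 by -0.85 and -0.66, Stmn1 by -0.92 and -0.46, and Tes by -1.84 and -1.29.

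**Figure D5:**
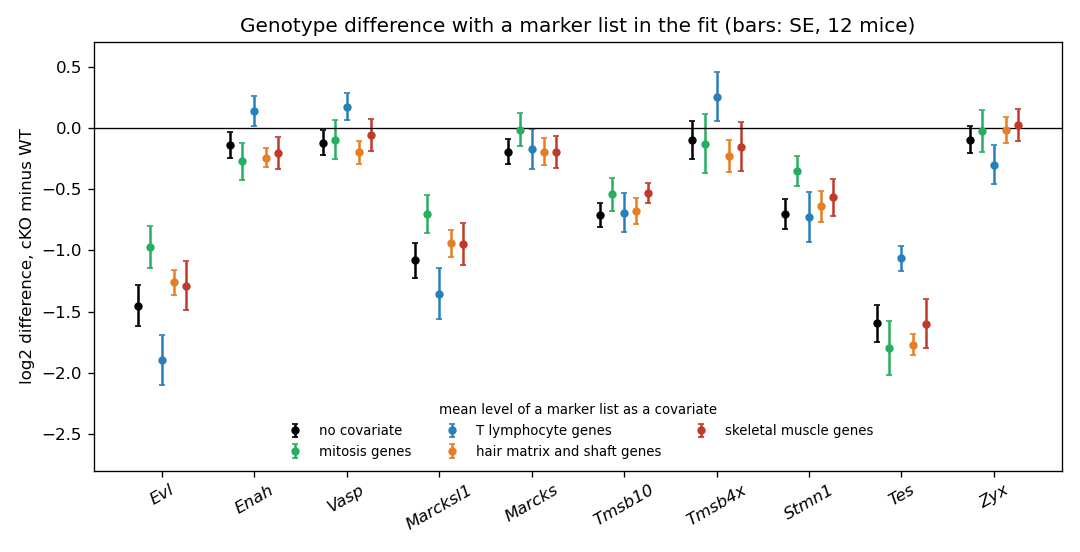
Log2 difference, cKO minus WT, averaged over both experiments, of each member without a covariate (black) and with the mean level of a marker list in the fit, with bars of 1 SE (12 mice). Evl, Marcksl1, Tmsb10, Stmn1 and Tes stay below 0 in every fit shown, Evl, Marcksl1 and Stmn1 lie nearest 0 with the mitosis mean, and Tes with the T lymphocyte mean.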

How the data were processed

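Per the file headers, the scanner files hold spot intensities from Feature Extraction 11.5.1.1: a background-subtracted processed signal, and median spot and background intensities. The deposited value table of the authors holds log2 values; the submitters' processing notes name limma, and no source used here gives its normalization. Its column for cKO 1 matched that mouse's array poorly (r = 0.343), so the table served as an alternative.

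Outlier spots were left out, log2 processed signals were averaged per probe, and each array was scaled by subtracting its 75th percentile. Probes well above background on at least 3 of 12 arrays were kept, and the brightest per gene was used (4130 genes had several). Genes were named by RefSeq accession (GRCm38.p6). Limma 3.58.1 (R 4.3.3) fitted 4 group means over 16183 genes with 8 residual degrees of freedom. Tests were two-sided, adjusted by Benjamini-Hochberg over all genes at 0.05, and the code was tested on simulated data. Ratios of relatives were fitted by least squares. Errors are SE, with precision limited by 3 arrays in a group; no label says whether mice shared a litter.

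The members, gene lists and tests were chosen with earlier results of these data known. Genes named are the members, Sox4, up to 4 per list by smallest p, the 3 nearest profiles, and up to 3 markers per list by level. Mitosis, T lymphocyte and hair matrix covariates, the value table without cKO 1, and marker medians without cKO 5, were added after the data were seen; other alternatives were slide, scaling, background correction, filter, probe choice, a muscle covariate and single mice. Mice of the same number did not deviate together (r -0.26 to 0.07) and were not treated as pairs.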

Additional observations from a re-analysis of the deposited data

Results flagged for a closer look

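Within the 6 mice of a genotype, 5 of 20 sets of member levels held 1 mouse set far from the rest by Dixon's criterion, which chance meets in about 1 in 20 sets; the sets share mice and are not independent. Among cKO mice, cKO 5 was the lowest for Evl (1.83) and the highest for Vasp (1.06), Tmsb4x (7.24) and Tes (0.08). Among WT mice, WT 2 was the highest for Tmsb4x (7.08). The averaged Evl difference was -1.30 without cKO 5 and -1.45 with it, and that of Tes was -1.75 without it and -1.60 with it.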

How the results depend on the processing

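In the averaged genotype contrast 5 members passed, and this count was 3 with median scaling and within slide 2, 2 in the authors' value table, 1 with the muscle covariate, the mitosis covariate and within slide 1, and 3 to 5 on leaving out 1 mouse. Within slides only 2 (slide 1) and 1 (slide 2) residual degrees of freedom were left. With mouse number as a replicate block it was 0 of 10, with unchanged differences; the numbers do not pair the mice. These counts, and those for Exp 1 and Exp 2 below, rest on the difference that chose the members and support nothing about them. Over all genes the count was 68, and 4 (replicate block) to 1019 (T lymphocyte covariate) elsewhere.

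For the Exp 1 contrast the count of 1 became 0 with median scaling, no dim-probe filter, the value table without cKO 1, the muscle and mitosis covariates and within slide 1, 2 with slide as a block, normexp, the all-array filter, the hair covariate and within slide 2, and 5 with the T lymphocyte covariate (0 to 2 without 1 mouse). For Exp 2 it became 0 with slide as a block, both value tables, the muscle and T lymphocyte covariates and within either slide, and 2 with the hair covariate (0 to 2 without 1 mouse). For Exp 1 minus Exp 2 in cKO mice it became 0 with slide as a block, median scaling, no dim-probe filter, both value tables and all 4 covariates, and 2 with normexp and the all-array filter (0 to 3 without 1 mouse); in WT mice it was 0 to 1 without 1 mouse. The cytoskeletal lists had 3 genes past the threshold with normexp, 1 with the all-array filter, 9 with the T lymphocyte covariate and 0 to 2 without 1 mouse.

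By median scaling, all genes shifted in their median by -0.14 in the Exp 2 and WT contrasts and by 0.11 in the interaction, relative to which the members' values are to be read. Some uncalled values turned sign; the cause was not tested. With the mitosis covariate the interaction was -0.092 for Enah, 0.19 for Evl, 0.26 for Marcksl1, 0.26 for Stmn1 and 0.14 for Tmsb10, and Exp 1 minus Exp 2 in cKO mice was 0.25 for Evl and 0.084 for Stmn1. With the T lymphocyte covariate the interaction was -0.17 for Enah, 0.026 for Marcksl1 and -0.084 for Tmsb4x, and the cKO contrast was 0.19 for Evl, -0.077 for Vasp, -0.065 for Tmsb4x and 0.14 for Zyx. With the hair covariate the interaction was -0.063 for Enah, the WT contrast -0.036 for Tmsb4x, and the cKO contrast 0.15 for Evl and 0.11 for Zyx. With the muscle covariate the interaction was 0.022 for Tmsb10 and the WT contrast -0.37 for Evl, which was -0.059 with slide as a block. Median scaling gave an interaction of 0.045 for Tmsb10 and WT contrasts of -0.073 for Evl and -0.0095 for Tmsb4x. The value table gave interactions of 0.20 for Marcksl1, -0.25 for Tmsb4x and -0.0092 for Zyx, WT contrasts of 0.0021 for Marcks and 0.12 for Stmn1 (the same without cKO 1), a cKO contrast of 0.014 for Stmn1 and, without cKO 1, 0.00011 for Zyx. Normexp gave WT contrasts of 0.0062 for Marcks and 0.14 for Stmn1.

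Without 1 mouse, values that crossed 0 ranged in the interaction from -0.11 to 0.19 for Enah, -0.36 to 0.0058 for Marcksl1, -0.20 to 0.041 for Tmsb10, -0.024 to 0.40 for Tmsb4x and -0.14 to 0.20 for Zyx, in the WT contrast from -0.063 to 0.18 for Evl, -0.16 to 0.11 for Marcks and -0.045 to 0.27 for Tmsb4x, and in the cKO contrast from -0.27 to 0.066 for Zyx. Enah was called in 8 of 26 alternatives in the cKO contrast and in 1 of 26 in the WT contrast. With 3 mice in a group, small differences between experiments were beyond reach.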
